A study of Mus musculus with 16 samples.

Results

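The adipocyte and lipogenesis genes were 36 genes picked by name for their place in fat cells and in the making of fatty acids and triglycerides. A probe set that names the gene alone was found for 34 of them, out of 19938 genes measured in all, and the brightest such probe set stood for each gene. Cfd and Adrb3 had no such probe set and have no value here. The RNA came from footpads of mice of the AIRmax and AIRmin lines, which were bred from a mix of inbred strains for a high or a low acute inflammatory response, and in which intraperitoneal pristane, a mineral oil, is used to induce arthritis. Total RNA was hybridized to 16 Affymetrix Mouse Gene 1.0 ST arrays, with each of 4 groups on 4 arrays.

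The AIRmax control group (arrays 105 to 108) and the AIRmin control group (arrays 113 to 116) held footpads of day 0, and the labels call them control. The AIRmax pristane group (arrays 109 to 112) and the AIRmin pristane group (arrays 117 to 120) held footpads of day 160, counted from the second of 2 injections of 0.5 ml given 60 days apart. Every group held 2 males, on its first 2 arrays, and 2 females. The protocol on the labels describes the injections for all samples alike and counts day 0, too, from the second one, so the sources used here do not settle whether control mice had received pristane. All samples share the labels outbred stock and an age of 2 to 4 months. That age is less than the 160 days of the pristane groups, and the age at sampling is not known. The study cites earlier work in which AIRmax mice were extremely susceptible to this arthritis and AIRmin mice were resistant. Every control is from day 0 and every pristane sample from day 160. Pristane, time, age and any arthritis thus cannot be told apart in either line. The methods of the study call the 4 arrays of a group biological replicates, and the sources used here do not say whether an array held RNA of 1 mouse or of several. A footpad holds skin, fat, muscle and inflammatory cells, and in such bulk RNA fewer cells of a type and less RNA per cell cannot be told apart.

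Adipocytes store triglyceride in a lipid droplet coated by perilipin and CIDE proteins, take up fatty acids released by lipoprotein lipase, and secrete hormones such as adiponectin and leptin. They form under the control of the nuclear receptor PPARG and the factor CEBPA. Fatty acids are made from acetyl-CoA by ATP citrate lyase, acetyl-CoA carboxylase and fatty acid synthase, then desaturated and elongated, and joined to glycerol phosphate to give triglyceride. Several genes of the second set are not particular to fat cells, since the sebaceous gland, the keratinocyte and skeletal muscle use them too.

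Array medians lay between 5.44 and 5.53. The lists of the tissue were well seen on every array, with a mean log2 signal of 9.02 to 11.5 for the keratinocyte genes and of 7.76 to 10.1 for the skeletal muscle genes. Arrays give no counted depth, and the precision of each value is set by the spread of 4 arrays. Arrays 108 (AIRmax control), 109 and 112 (AIRmax pristane) and 118 (AIRmin pristane) stood apart. They had the highest mean deviation of 9 granulocyte precursor genes, among them Elane, Mpo and Camp, at 2.02, 2.03, 1.91 and 1.29 on the log2 scale, while the other 12 arrays lay between -2.93 and 0.41. Arrays 108, 109 and 112 also had the lowest deviation of 10 keratinocyte genes, at -0.77, -0.77 and -1.70.

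In AIRmax footpads, 33 of the 34 genes had a lower mean at day 160 after pristane than in controls, against 44.3% of all genes, and the median log2 difference was -0.70 against 0.03 over all genes. In AIRmin footpads 28 of the 34 had a lower mean, against 45.3% of all genes, with a median log2 difference of -0.41 against 0.02. All 4 droplet coat genes and all 4 genes of uptake and transport had lower means in both lines, with median log2 differences of -1.06 and -0.99 in AIRmax and of -0.59 and -0.82 in AIRmin. For the 10 genes of fatty acid synthesis the median log2 difference was -0.64 in AIRmax and -0.13 in AIRmin. The heat map of all members by array shows these values.

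**Figure D1:**
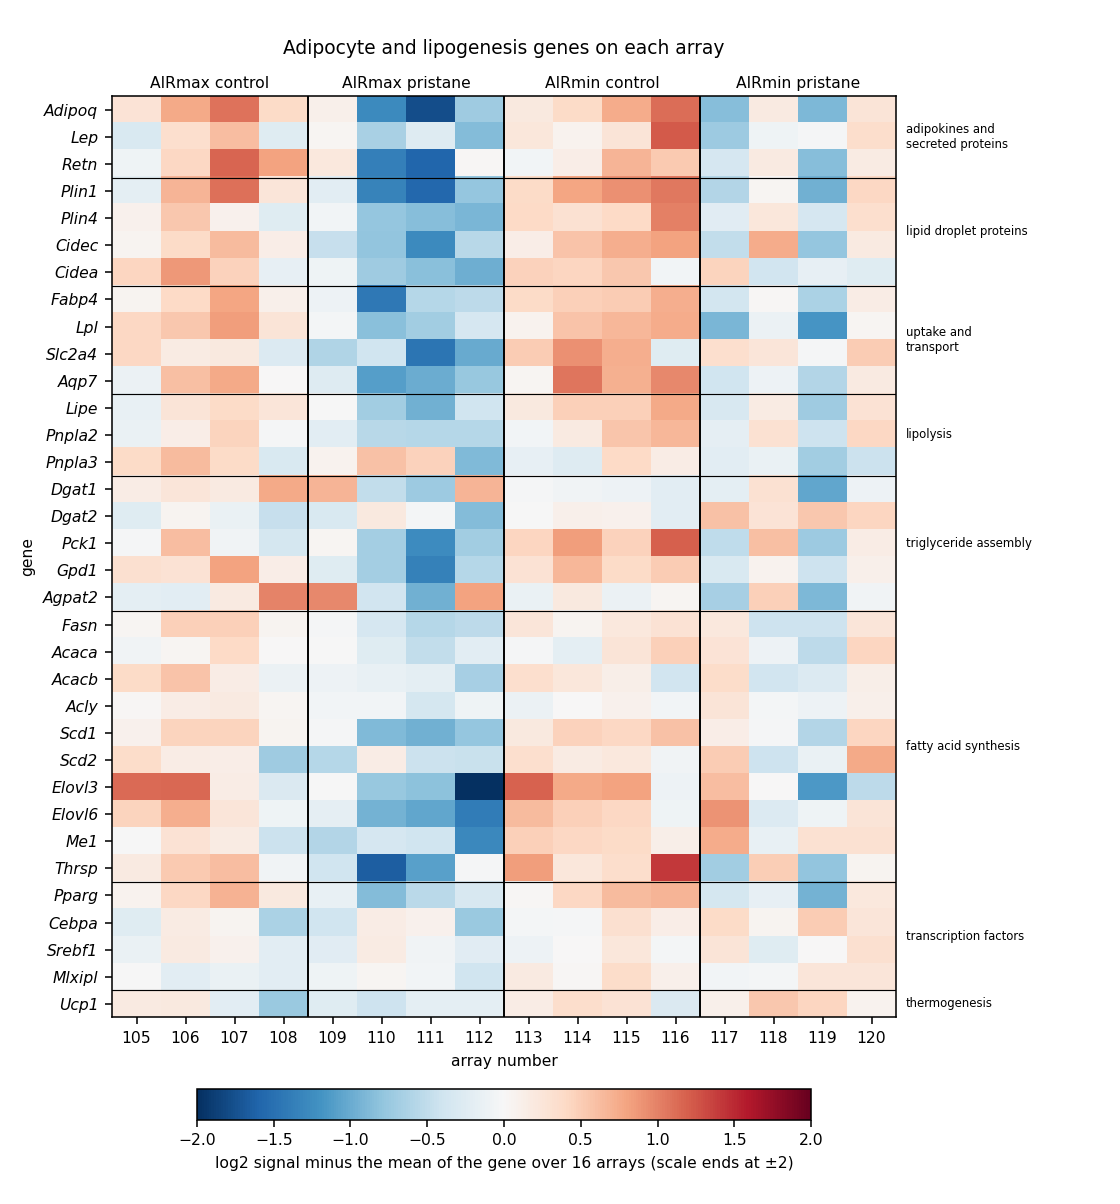
Log2 signal of each of the 34 genes (rows, grouped by role) on each of the 16 arrays (columns, by array number), as the difference from the mean of that gene over all arrays, with red above and blue below the mean. Arrays 110 to 112 of the AIRmax pristane group are blue for most genes, array 109 of that group is paler, and arrays 117 and 119 of the AIRmin pristane group are blue mainly for the adipocyte genes in the upper rows.

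None of these AIRmax differences passed the test. The test was limma with p values adjusted over all 19938 genes and a threshold of 0.05, which called 0.14% of all genes lower and 0.14% higher. At an unadjusted p under 0.05, 24 of the 34 were lower, against 6.9% of all genes. SAM, the permutation method of the study itself, called 19 of them lower at a false discovery rate of 0.05, against 2.56% of all genes. In 14 of the 34 every AIRmax pristane array lay below every AIRmax control array, against 4.3% of all genes. These 14, of which 13 were also called by SAM, were Adipoq, Plin1, Cidec, Lpl, Fabp4, Slc2a4, Aqp7, Pnpla2, Gpd1, Fasn, Acly, Scd1, Elovl6 and Pparg. The one of them not called by SAM was Acly. The largest of the 34 log2 differences was that of Adipoq and the smallest adjusted p that of Cidec.

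Sequence before the transcription start was at hand for 9 of those 14 genes, and the 250 bases that end at the outermost start are shown for the 5 whose window lies there, since these genes lay lower together in AIRmax pristane. They come from RefSeq on GRCm38.p6 and run 5′ to 3′ on the strand of the gene, and each lies just upstream of the first base of the gene in that annotation. The windows are chr16:23146286-23146535 on the plus strand for Adipoq, chr6:113435761-113436010 on the minus strand for Cidec, chr7:141454938-141455187 on the plus strand for Pnpla2, chr11:100528001-100528250 on the minus strand for Acly and chr3:129532136-129532385 on the plus strand for Elovl6. Capitals mark matches on either strand to CCAAT (the NF-Y core) and AGGTCA (the repeat unit in the sites of nuclear receptors such as PPARG). They also mark matches on either strand to CACGTG (an E-box that ChREBP and SREBP1 can bind) and TATAAA.
Adipoq: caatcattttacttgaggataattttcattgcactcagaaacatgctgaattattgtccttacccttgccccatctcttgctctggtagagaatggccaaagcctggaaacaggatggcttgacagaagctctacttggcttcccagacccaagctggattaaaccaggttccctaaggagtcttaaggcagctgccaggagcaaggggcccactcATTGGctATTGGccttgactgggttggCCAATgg
Cidec: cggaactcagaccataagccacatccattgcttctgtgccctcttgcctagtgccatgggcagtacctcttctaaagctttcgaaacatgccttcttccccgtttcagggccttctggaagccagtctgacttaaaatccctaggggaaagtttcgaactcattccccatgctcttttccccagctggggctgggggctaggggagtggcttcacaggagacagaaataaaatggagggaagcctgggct
Pnpla2: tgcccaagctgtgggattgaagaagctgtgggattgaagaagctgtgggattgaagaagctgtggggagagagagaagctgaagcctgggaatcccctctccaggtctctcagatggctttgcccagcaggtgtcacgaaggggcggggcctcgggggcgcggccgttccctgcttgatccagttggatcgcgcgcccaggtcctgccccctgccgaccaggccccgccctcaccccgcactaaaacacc
Acly: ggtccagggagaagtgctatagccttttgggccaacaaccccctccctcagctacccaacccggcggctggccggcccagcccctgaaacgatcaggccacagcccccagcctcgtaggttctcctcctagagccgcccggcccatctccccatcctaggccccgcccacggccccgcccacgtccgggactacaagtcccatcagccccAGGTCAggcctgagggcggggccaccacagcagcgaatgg
Elovl6: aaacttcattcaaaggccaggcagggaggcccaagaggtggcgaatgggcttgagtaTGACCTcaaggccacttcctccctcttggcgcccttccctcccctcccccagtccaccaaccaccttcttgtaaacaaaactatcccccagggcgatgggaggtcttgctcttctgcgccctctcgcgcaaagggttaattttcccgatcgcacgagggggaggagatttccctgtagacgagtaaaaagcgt
The Adipoq window holds 3 matches to CCAAT, at 34, 27 and 7 bases before the start. The Acly window holds AGGTCA at 40 and the Elovl6 window at 193 bases before the start, while those of Cidec and Pnpla2 hold none of the 4 words. Among all 32851 RefSeq windows of this length, 33.8% hold CCAAT and 14.0% hold AGGTCA. Among the 33 windows of the 24 members that have any, 12 hold CCAAT (36.4%) and 7 hold AGGTCA (21.2%). Some genes have several windows, so windows are not independent units. The 7 with AGGTCA belong to Acly, Aqp7, Elovl6, Pparg and Ucp1 alone, and the Aqp7 windows overlap and share a match. CACGTG stands in 6.02% of all windows and 2 of the 33, and TATAAA in 12.4% and 3 of the 33. In the windows shown no match overlaps another, and a match is a match of letters only. Fabp4, Lpl, Scd1, Gpd1 and Slc2a4 have no window here.

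Among the secreted proteins, Adipoq encodes adiponectin, an insulin-sensitizing hormone of fat cells. Its log2 signal was 8.28, 8.76, 9.10 and 8.39 on the AIRmax control arrays and 8.11, 6.73, 6.23 and 7.30 on the AIRmax pristane arrays. Array 109 lay just under the lowest control and the other pristane arrays well below it. The mean was 2.91-fold lower with pristane, a log2 difference of -1.54 (SE 0.37, adjusted p = 0.127). In AIRmin the signal was 8.20, 8.40, 8.74 and 9.13 in controls and 7.15, 8.19, 7.11 and 8.27 with pristane. Arrays 117 and 119 lay below all controls by a wide margin, array 118 was just under the lowest control, and array 120 was inside the control range. The AIRmin log2 difference was -0.94 (SE 0.31, adjusted p = 0.244).

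Retn, which encodes the fat cell hormone resistin, read 7.41, 7.92, 8.66 and 8.31 in AIRmax controls and 7.71, 6.13, 5.91 and 7.51 with pristane. Arrays 110 and 111 were far below the controls, whereas arrays 109 and 112 were within their range. The log2 difference was -1.26 (SE 0.44, adjusted p = 0.255) in AIRmax and -0.53 (SE 0.25, adjusted p = 0.425) in AIRmin. Lep encodes leptin, the hormone that reports fat stores to the brain. Its signal ran from 4.15 to 6.25, and the groups overlapped in both lines. Its log2 difference was -0.54 (SE 0.26, adjusted p = 0.378) in AIRmax and -0.57 (SE 0.28, adjusted p = 0.455) in AIRmin.

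All 4 droplet coat genes were lower at an unadjusted p under 0.05 in AIRmax, against 6.9% of all genes. Plin1, whose perilipin guards the droplet of the fat cell from lipases, read 7.68, 8.55, 8.96 and 8.11 in AIRmax controls and 7.66, 6.53, 6.30 and 7.10 with pristane. The groups were apart by a small margin, because array 109 with pristane nearly met array 105 among controls. The Plin1 log2 difference was -1.43 (SE 0.34, adjusted p = 0.129). In AIRmin Plin1 read 8.25, 8.66, 8.78 and 8.92 in controls and 7.28, 7.91, 6.91 and 8.29 with pristane. All AIRmin pristane arrays but 120 lay below the controls, and the log2 difference was -1.06 (SE 0.28, adjusted p = 0.158).

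Cidec, a protein that fuses droplets into one large droplet, had the smallest p of all members in AIRmax. It read 7.50, 7.83, 8.08 and 7.58 in AIRmax controls and 6.98, 6.66, 6.17 and 6.89 with pristane. All 4 pristane arrays, array 109 included, were clear of the controls. Cidec was 2.10-fold lower, a log2 difference of -1.07 (SE 0.20, adjusted p = 0.0706). In AIRmin it read 7.58, 8.01, 8.17 and 8.25 in controls and 6.95, 8.19, 6.68 and 7.62 with pristane. Arrays 118 and 120 lay inside the control range there, and the log2 difference was -0.65 (SE 0.30, adjusted p = 0.425).

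Plin4, a coat protein of growing droplets, and Cidea, a relative of Cidec found in brown fat and in sebaceous glands, had overlapping groups in AIRmax only through array 109 with pristane and array 108 among controls. Plin4 read 7.25, 7.71, 7.25 and 6.92 in AIRmax controls and 7.11, 6.38, 6.31 and 6.25 with pristane, and its log2 difference was -0.77 (SE 0.22, adjusted p = 0.181). Cidea read 8.19, 8.63, 8.22 and 7.59 and 7.67, 7.05, 6.92 and 6.79 in these groups, and its log2 difference was -1.05 (SE 0.25, adjusted p = 0.125). In AIRmin Plin4 read 7.57, 7.47, 7.56 and 8.17 in controls and 6.93, 7.39, 6.82 and 7.49 with pristane, and Cidea read 8.22, 8.19, 8.30 and 7.71 and 8.21, 7.38, 7.60 and 7.52. The AIRmin groups of both genes overlapped. In AIRmin the log2 difference of Plin4 was -0.53 (SE 0.20, adjusted p = 0.303) and that of Cidea was -0.43 (SE 0.19, adjusted p = 0.408).

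All 4 genes of uptake and transport were lower without overlap in AIRmax, against 4.3% of all genes. Lpl encodes lipoprotein lipase, which frees fatty acids from blood lipoproteins. Its signal was 9.62, 9.76, 10.04 and 9.47 in AIRmax controls and 9.17, 8.37, 8.52 and 8.89 with pristane. The highest pristane array was 109 and the lowest control array 108, with a clear gap between them. The Lpl log2 difference was -0.99 (SE 0.19, adjusted p = 0.0813). In AIRmin Lpl read 9.28, 9.79, 9.88 and 9.96 in controls and 8.30, 9.10, 8.03 and 9.26 with pristane. The groups were apart there as well, by little, since array 120 came close to array 113. With -1.06 (SE 0.28, adjusted p = 0.156), the AIRmin log2 difference was of about the same size as that in AIRmax.

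Fabp4 encodes the fatty acid binding protein of fat cells, also made by macrophages and endothelium. It read 9.72, 10.06, 10.46 and 9.77 in AIRmax controls and 9.57, 8.24, 9.10 and 9.15 with pristane. The AIRmin values were 10.05, 10.14, 10.17 and 10.39 in controls and 9.30, 9.69, 9.03 and 9.81 with pristane. In both lines no pristane array reached the lowest control. On the log2 scale the difference was -0.99 (SE 0.28, adjusted p = 0.174) in AIRmax and -0.73 (SE 0.17, adjusted p = 0.123) in AIRmin, where Fabp4 had the smallest p of the 34 genes.

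Aqp7, the channel through which fat cells release glycerol, read 6.40, 7.11, 7.27 and 6.51 in AIRmax controls and 6.24, 5.40, 5.51 and 5.75 with pristane. Its AIRmin values were 6.54, 7.58, 7.22 and 7.47 in controls and 6.11, 6.40, 5.92 and 6.69 with pristane. The groups were apart in AIRmax and overlapped in AIRmin through array 120. The mean log2 difference was -1.10 (SE 0.25, adjusted p = 0.114) in AIRmax and -0.92 (SE 0.24, adjusted p = 0.152) in AIRmin.

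**Figure D2:**
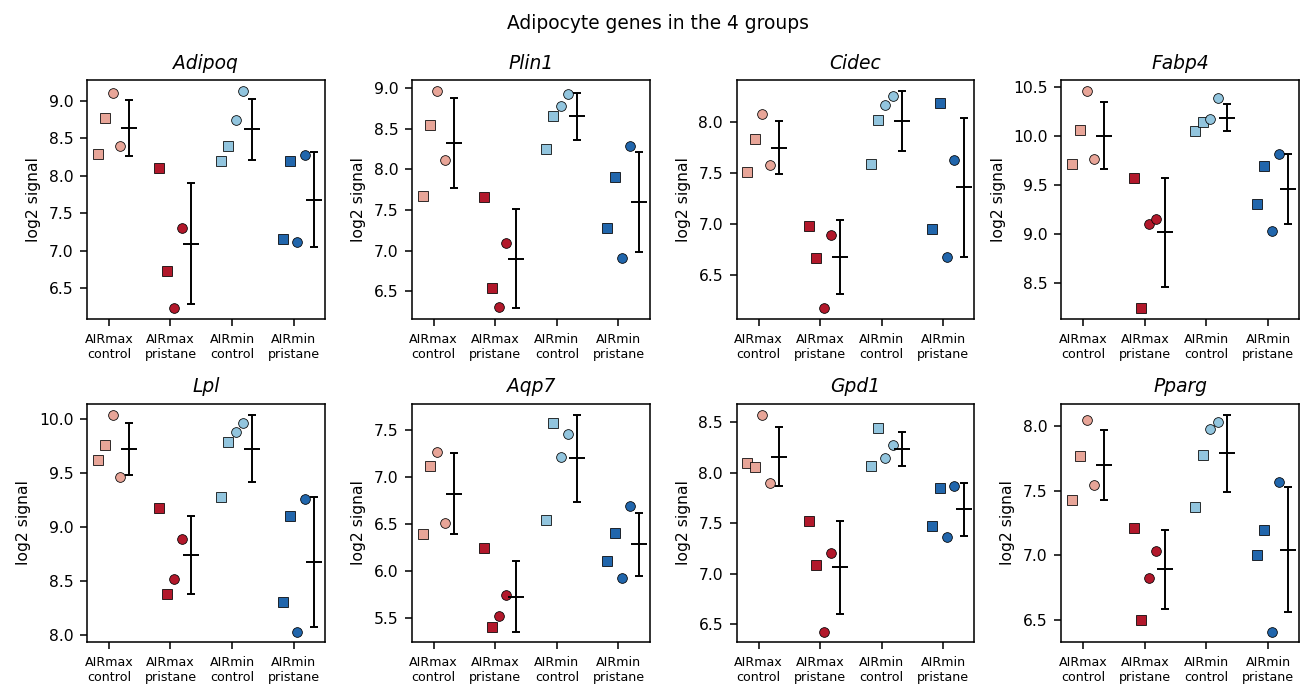
Log2 signal of 8 adipocyte genes on the 4 arrays of each group (squares males, circles females), with the mean and SD as a bar beside the points. Adipoq, Cidec, Lpl, Fabp4, Aqp7, Gpd1 and Pparg show a gap between AIRmax control and AIRmax pristane arrays. The AIRmax pristane male on array 109 lies highest of its group in all 8 panels.

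The log2 differences of the droplet lipases were smaller. Pnpla2, which encodes the lipase ATGL that starts the breakdown of triglyceride, read 8.25, 8.51, 8.83 and 8.36 in AIRmax controls and 8.16, 7.83, 7.81 and 7.80 with pristane. Array 109 stood above the other pristane arrays, which were almost equal, and still under every control. The log2 difference was -0.59 (SE 0.14, adjusted p = 0.136) in AIRmax and -0.31 (SE 0.22, adjusted p = 0.610) in AIRmin. Lipe, the hormone-sensitive lipase, had a log2 difference of -0.70 (SE 0.21, adjusted p = 0.188) in AIRmax and -0.62 (SE 0.22, adjusted p = 0.274) in AIRmin. Pnpla3, a relative of ATGL, had one of -0.22 (SE 0.33, adjusted p = 0.797) in AIRmax and -0.39 (SE 0.17, adjusted p = 0.385) in AIRmin.

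In triglyceride assembly the values differed from gene to gene. Gpd1, which makes glycerol 3-phosphate for the backbone, read 8.10, 8.06, 8.58 and 7.90 in AIRmax controls and 7.53, 7.09, 6.43 and 7.21 with pristane. In AIRmin it read 8.07, 8.45, 8.15 and 8.28 in controls and 7.47, 7.84, 7.36 and 7.87 with pristane. Every pristane array was under every control in both lines. The pristane minus control log2 difference was -1.10 (SE 0.23, adjusted p = 0.0986) in AIRmax and -0.60 (SE 0.14, adjusted p = 0.125) in AIRmin. Pck1, which supplies glycerol phosphate from pyruvate, had a log2 difference of -0.69 (SE 0.28, adjusted p = 0.315) in AIRmax and -0.85 (SE 0.29, adjusted p = 0.256) in AIRmin, with overlapping groups in both.

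Dgat2, 1 of the enzymes that add the last fatty acid, was among the 6 of the 34 genes with a higher mean with pristane in AIRmin. Its signal was 9.82, 9.94, 9.93 and 9.63 in AIRmin controls and 10.42, 10.11, 10.38 and 10.26 with pristane. It was the 1 gene of the 34 (2.94%) with every AIRmin pristane array above every AIRmin control, a share near the 3.19% of all genes. The log2 difference was 0.46 (SE 0.11, adjusted p = 0.123). In AIRmax Dgat2 read 9.60, 9.89, 9.71 and 9.38 in controls and 9.54, 10.03, 9.80 and 8.97 with pristane. The pristane arrays spread to both sides of the controls, and the log2 difference was -0.06 (SE 0.22, adjusted p = 0.925).

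Agpat2, which adds the second fatty acid, and Dgat1, the other enzyme of the last step, followed single arrays rather than treatment in AIRmax. Agpat2 read 7.96, 7.95, 8.33 and 9.15 in AIRmax controls and 9.12, 7.77, 7.19 and 8.97 with pristane, and its log2 difference was -0.08 (SE 0.45, adjusted p = 0.952). Dgat1 read 8.30, 8.39, 8.32 and 8.90 and 8.83, 7.65, 7.41 and 8.82 in these groups, and its log2 difference was -0.30 (SE 0.34, adjusted p = 0.720). In AIRmin the log2 difference was -0.29 (SE 0.26, adjusted p = 0.711) for Agpat2 and -0.15 (SE 0.24, adjusted p = 0.841) for Dgat1. Array 118 was the highest AIRmin pristane array for both, at 8.63 and 8.45. Among AIRmax arrays 108, 109 and 112 stood high for both genes and 110 and 111 low. The same 3 arrays stood high in granulocyte precursor genes, whose part in these values was not tested.

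Leaving out array 109 gave 4 calls by limma in AIRmax, namely Adipoq, Elovl6, Lpl and Scd1, against 0.286% of all genes called lower. Without all 4 arrays high in granulocyte precursor genes, a choice made after seeing the data that leaves 3 control and 2 pristane arrays in AIRmax, 16 of the 34 genes were called lower, against 1.5% of all genes. The log2 difference of Adipoq was then -2.23 with an adjusted p of 0.0117, and that of Lpl -1.36 with an adjusted p of 0.0115. The median log2 difference of the 34 was then -1.03. Array 109 had the highest mean deviation of the 34 genes among AIRmax pristane arrays, at -0.10. Array 108 had the lowest among AIRmax controls, at -0.03. Leaving these arrays out widens the difference between the groups by itself, so these calls are no independent support. With all 16 arrays in 1 limma fit 7 of the 34 were called lower, against 0.948% of all genes. These were Adipoq, Plin1, Aqp7, Gpd1, Cidea, Elovl6 and Scd1, and all 7 were among the 19 called by SAM. The sign of the AIRmax difference turned when 1 or more arrays were left out for Agpat2, Cebpa, Dgat2, Mlxipl and Pnpla3, whose log2 differences over all 8 arrays were at most 0.22 in size.

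In AIRmin limma called none of the 34 genes, and 0% of all genes in either direction. At an unadjusted p under 0.05, 13 of the 34 were lower and 1 was higher, against 7.27% and 5.12% of all genes. SAM called 5 lower, Plin1, Lpl, Fabp4, Aqp7 and Gpd1, against 1.72% of all genes. The groups did not overlap for Lpl, Fabp4 and Gpd1, 3 genes lower against 4.32% of all genes. Leaving out arrays turned the sign of the AIRmin difference for Acaca, Dgat1, Elovl6, Me1, Scd2 and Srebf1, whose log2 differences over all 8 arrays were at most 0.16 in size. The plot of both responses side by side shows that each line was near or left of 0 for most genes.

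**Figure D3:**
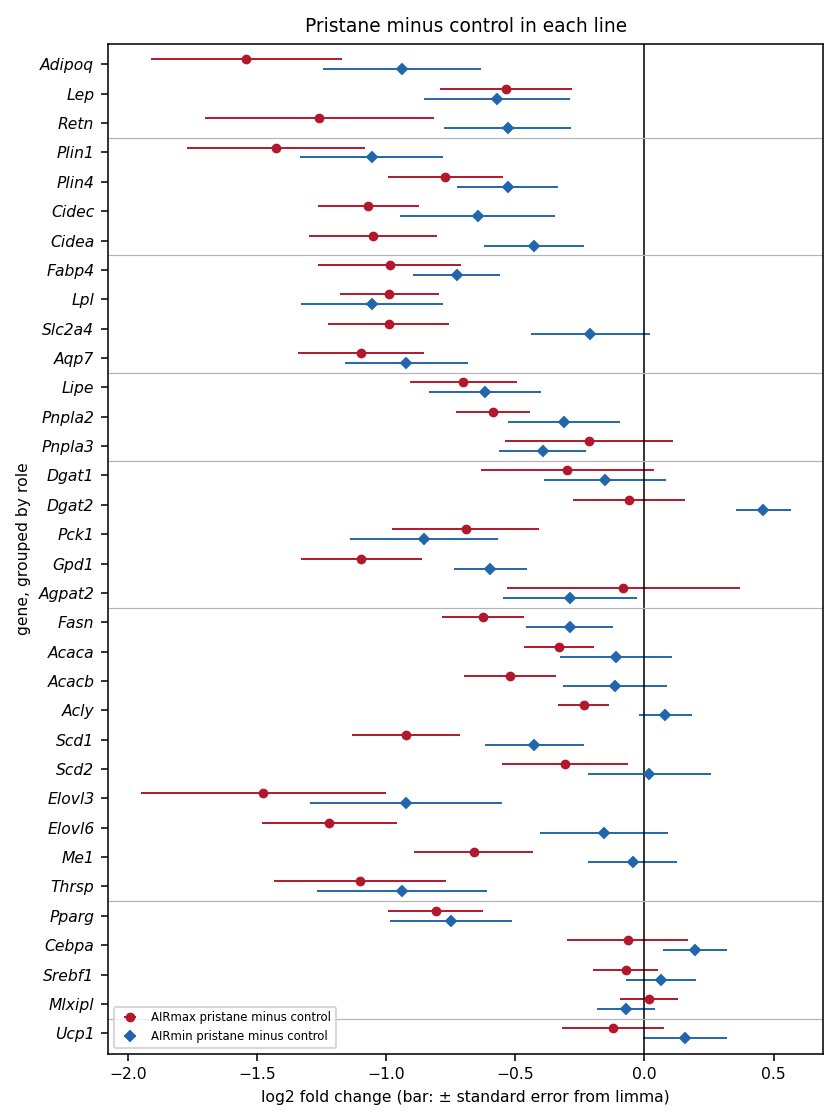
Log2 difference of pristane minus control for each of the 34 genes, with its standard error from limma as a bar, in AIRmax (red circles) and in AIRmin (blue diamonds), grouped by role from the secreted proteins at the top to Ucp1 at the bottom. For Lpl, Lep and Pparg the 2 lines lie together, for Elovl6, Slc2a4 and Me1 the AIRmax value lies left of an AIRmin value near 0, and Dgat2 in AIRmin lies right of 0.

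Among the 10 genes of fatty acid synthesis, all had a lower mean in AIRmax and 8 in AIRmin, and 9 and 2 of them were lower at an unadjusted p under 0.05, against 6.9% and 7.27% of all genes. Elovl6, which lengthens palmitate, read 10.54, 10.81, 10.33 and 10.00 in AIRmax controls and 9.91, 9.14, 9.05 and 8.70 with pristane. All 4 pristane arrays were below the controls, array 109 by the least. Elovl6 was 2.33-fold lower, a log2 difference of -1.22 (SE 0.26, adjusted p = 0.0986). In AIRmin Elovl6 read 10.72, 10.56, 10.49 and 10.00 in controls and 10.99, 9.81, 10.00 and 10.35 with pristane, so that the groups lay over each other, with a log2 difference of -0.16 (SE 0.25, adjusted p = 0.847).

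Scd1, the desaturase that makes oleate and is abundant in fat and in sebaceous glands, read 12.02, 12.38, 12.39 and 11.99 in AIRmax controls and 11.91, 11.05, 10.98 and 11.15 with pristane. Array 109 was just below the controls and arrays 110 to 112 were well below them. The means differed by a log2 value of -0.92 (SE 0.21, adjusted p = 0.117) in AIRmax and -0.43 (SE 0.19, adjusted p = 0.410) in AIRmin. Its relative Scd2 had differences of -0.31 (SE 0.24, adjusted p = 0.594) and 0.02 (SE 0.24, adjusted p = 0.985).

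Fasn, the fatty acid synthase, read 9.26, 9.69, 9.69 and 9.26 in AIRmax controls and 9.18, 8.88, 8.64 and 8.69 with pristane, groups that did not meet. Its log2 difference was -0.63 (SE 0.16, adjusted p = 0.142) in AIRmax and -0.29 (SE 0.17, adjusted p = 0.533) in AIRmin. Acly, which makes the acetyl-CoA, read 9.30, 9.42, 9.46 and 9.32 in AIRmax controls and 9.23, 9.22, 8.93 and 9.19 with pristane. The AIRmax groups were apart although the difference was small, at -0.24 (SE 0.10, adjusted p = 0.322). In AIRmin Acly read 9.16, 9.28, 9.36 and 9.21 in controls and 9.54, 9.24, 9.18 and 9.37 with pristane, where array 117 was the highest of all 16, and the difference was 0.08 (SE 0.10, adjusted p = 0.797). The carboxylases Acaca and Acacb had log2 differences of -0.33 (SE 0.14, adjusted p = 0.321) and -0.52 (SE 0.18, adjusted p = 0.242) in AIRmax. In AIRmin they were -0.11 (SE 0.22, adjusted p = 0.883) and -0.11 (SE 0.20, adjusted p = 0.865). Me1, malic enzyme, which supplies NADPH for fatty acid synthesis, had -0.66 (SE 0.23, adjusted p = 0.252) in AIRmax and -0.05 (SE 0.17, adjusted p = 0.947) in AIRmin.

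Elovl3, an elongase of skin and brown fat, had the second most negative difference in AIRmax and a wide spread. It read 9.66, 9.66, 8.67 and 8.23 in AIRmax controls and 8.50, 7.77, 7.70 and 6.36 with pristane. The males of both groups, on the first 2 arrays, were above the females, and only array 109 of the pristane group reached the control range. The log2 difference was -1.48 (SE 0.47, adjusted p = 0.221) in AIRmax and -0.92 (SE 0.37, adjusted p = 0.348) in AIRmin. Thrsp, a small protein that promotes fatty acid synthesis, had one of -1.10 (SE 0.33, adjusted p = 0.198) and -0.94 (SE 0.33, adjusted p = 0.277).

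Of the transcription factors only Pparg, the master regulator of fat cells, was lower at an unadjusted p under 0.05. It read 7.43, 7.77, 8.05 and 7.55 in AIRmax controls and 7.21, 6.49, 6.82 and 7.03 with pristane, with no overlap. In AIRmin it read 7.38, 7.78, 7.98 and 8.04 in controls and 7.00, 7.20, 6.41 and 7.57 with pristane, and only array 120 was inside the control range. The mean log2 difference was -0.81 (SE 0.18, adjusted p = 0.116) in AIRmax and -0.75 (SE 0.24, adjusted p = 0.228) in AIRmin. Cebpa, which acts with Pparg, had differences of -0.07 (SE 0.24, adjusted p = 0.925) and 0.20 (SE 0.13, adjusted p = 0.576). For Srebf1, the SREBP1 factor of lipogenesis, they were -0.07 (SE 0.13, adjusted p = 0.827) and 0.06 (SE 0.14, adjusted p = 0.893). Mlxipl, which encodes the glucose sensor ChREBP, had 0.02 (SE 0.11, adjusted p = 0.960) in AIRmax and -0.07 (SE 0.11, adjusted p = 0.847) in AIRmin. Ucp1, the uncoupling protein of brown fat, read 3.67 to 4.94 over all arrays. The files give no detection call, so whether Ucp1 was above background is not known. Its log2 difference was -0.12 (SE 0.20, adjusted p = 0.814) in AIRmax and 0.16 (SE 0.16, adjusted p = 0.750) in AIRmin.

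Set against each other after pristane, the AIRmax group lay below the AIRmin group in 30 of the 34 genes, with a median log2 difference of -0.51 against -0.01 over all genes. This comparison uses the same pristane arrays as the 2 responses. Slc2a4 was the 1 gene of the 34 that passed in this comparison, in which limma called 0.507% of all genes lower. It encodes GLUT4, the insulin-regulated glucose transporter of fat and of skeletal muscle. Its signal was 7.00, 7.21, 6.15 and 6.59 in AIRmax pristane and 7.94, 7.85, 7.58 and 8.12 in AIRmin pristane. No AIRmax array reached the lowest AIRmin array, and the AIRmax mean was 2.20-fold lower, a log2 difference of -1.13 (SE 0.22, adjusted p = 0.0480). The call was lost when any of arrays 109, 111, 112, 117, 118, 119 or 120 was left out and held without array 110.

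In controls Slc2a4 read 8.01, 7.77, 7.80 and 7.34 in AIRmax and 8.11, 8.53, 8.33 and 7.37 in AIRmin. The pristane minus control difference was -0.99 (SE 0.24, adjusted p = 0.126) in AIRmax, where the groups were apart, and -0.21 (SE 0.23, adjusted p = 0.764) in AIRmin, where they overlapped. A list of 23 skeletal muscle genes was lowest in the same group. Its mean deviation was 0.13 ± 0.28 in AIRmax controls, -0.80 ± 0.70 in AIRmax pristane, 0.28 ± 0.62 in AIRmin controls and 0.38 ± 0.19 in AIRmin pristane (SD, n = 4 each). Between the pristane groups the median log2 difference of the 23 was -1.23, 15 of them lay lower without overlap, against 5.81% of all genes, and 1, Mb, passed. The part of muscle RNA in the Slc2a4 result was not tested.

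The groups after pristane did not overlap for Slc2a4, Me1, Dgat2 and Ucp1, 4 genes lower in AIRmax against 5.81% of all genes. Me1 read 8.57, 8.82, 8.76 and 7.87 in AIRmax pristane and 9.90, 9.01, 9.46 and 9.47 in AIRmin pristane. The Me1 log2 difference was -0.96 (SE 0.24, adjusted p = 0.0853). Ucp1, for which no detection call is given, read 4.16, 3.99, 4.22 and 4.21 and 4.51, 4.94, 4.83 and 4.47 in these groups, with a log2 difference of -0.54 (SE 0.13, adjusted p = 0.0772). Every AIRmax array lay under every AIRmin array for both genes. For Plin4 the log2 difference was -0.65 (SE 0.22, adjusted p = 0.167), with array 109 inside the AIRmin range. Dgat2, whose AIRmin pristane values were the highest of its 4 groups, had a log2 difference of -0.71 (SE 0.21, adjusted p = 0.116). For Elovl6 it was -1.09 (SE 0.30, adjusted p = 0.105), with array 109 of AIRmax above array 118 of AIRmin. The groups overlapped for Adipoq, Plin1 and Lpl, with log2 differences of -0.59 (SE 0.42, adjusted p = 0.496) for Adipoq, -0.70 (SE 0.36, adjusted p = 0.331) for Plin1 and 0.06 (SE 0.29, adjusted p = 0.936) for Lpl. At an unadjusted p under 0.05, 12 of the 34 were lower, against 10.1% of all genes, and SAM called Slc2a4 and Ucp1, against 2.37% of all genes. In the fit of all 16 arrays 4 genes passed, Slc2a4, Me1, Elovl6 and Dgat2, against 3.8% of all genes. Leaving out arrays turned the sign for Lpl, Pparg, Agpat2 and Dgat1.

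**Figure D4:**
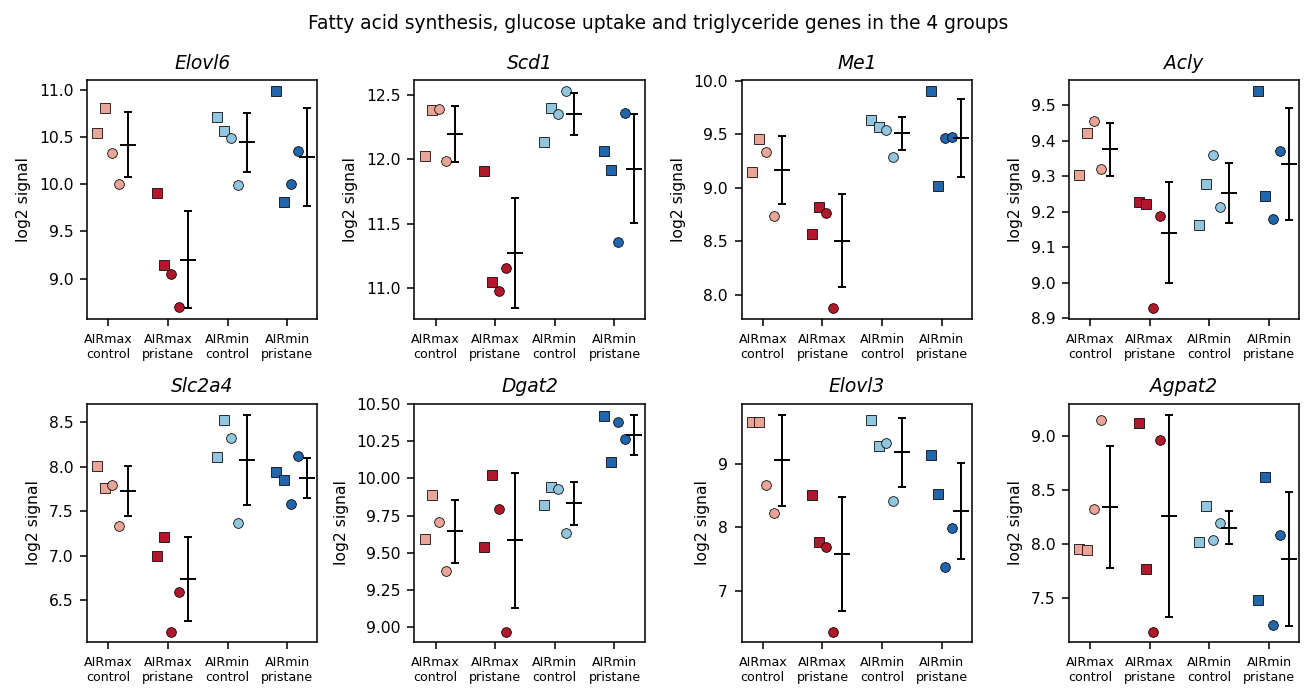
Log2 signal of 8 genes of fatty acid synthesis, glucose uptake and triglyceride assembly on the 4 arrays of each group (squares males, circles females), with the mean and SD as a bar beside the points. Slc2a4 and Me1 in AIRmax pristane lie below all AIRmin arrays of the same treatment, Dgat2 is highest in AIRmin pristane, and Agpat2 splits the AIRmax arrays of both treatments.

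Between the control groups no gene of the 34 passed, and limma called 0.0301% of all genes lower and 0.0502% higher in AIRmax, and the median log2 difference was -0.17 against -0.03 over all genes. With no adjustment, 2 genes were lower and 1 higher at p under 0.05, against 8.4% and 8.38% of all genes, and SAM called none, against 0.717% of all genes lower and 0.577% higher. Mlxipl, at 5.73, 5.53, 5.60 and 5.53 in AIRmax and 5.91, 5.76, 6.10 and 5.84 in AIRmin, was the 1 gene lower without overlap, against 4.94% of all genes. Its log2 difference was -0.31 (SE 0.10, adjusted p = 0.214). Dgat1, at 8.30, 8.39, 8.32 and 8.90 in AIRmax and 8.12, 8.07, 8.04 and 7.93 in AIRmin, was the 1 gene higher without overlap, against 5.39% of all genes, with array 108 far above the rest. The Dgat1 log2 difference was 0.44 (SE 0.13, adjusted p = 0.212). Pck1 read 6.86, 7.50, 6.81 and 6.54 in AIRmax controls and 7.32, 7.72, 7.34 and 8.08 in AIRmin controls, with array 106 alone inside the AIRmin range, and a log2 difference of -0.69 (SE 0.23, adjusted p = 0.223). Me1 read 9.15, 9.46, 9.33 and 8.73 and 9.64, 9.57, 9.54 and 9.29 in these groups, where it overlapped, with a difference of -0.34 (SE 0.16, adjusted p = 0.303). Lipe, at 7.75, 8.17, 8.28 and 8.14 and 8.09, 8.38, 8.38 and 8.66, overlapped too, with -0.29 (SE 0.15, adjusted p = 0.341), and so did Plin4 with -0.41 (SE 0.19, adjusted p = 0.323). The 3 genes last named thus had no gap between the lines. Adipoq and Lpl differed between the control groups by 0.02 (SE 0.23, adjusted p = 0.978) and -0.0038 (SE 0.17, adjusted p = 0.992). Both signs turned under some alternatives, that of Adipoq also on quantile normalized arrays.

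Whether the response to pristane differed between the lines was tested by the interaction, the AIRmax response minus the AIRmin response. None of the 34 genes passed, and limma called 0% of all genes lower and 0.171% higher. With no adjustment, 3 genes were lower at p under 0.05, Elovl6, Acly and Slc2a4, against 2.82% of all genes. The interaction on the log2 scale was -1.06 (SE 0.39, adjusted p = 0.452) for Elovl6, -0.32 (SE 0.13, adjusted p = 0.551) for Acly and -0.78 (SE 0.35, adjusted p = 0.587) for Slc2a4. The next smallest p were those of Dgat2, at -0.52 (SE 0.25, adjusted p = 0.629), Me1, at -0.62 (SE 0.31, adjusted p = 0.644), and Cidea, at -0.62 (SE 0.34, adjusted p = 0.688). All 10 fatty acid synthesis genes had a negative interaction, with a median of -0.37, beside a median of 0.01 over all genes, although the sign for Thrsp turned when some single arrays were left out. The other roles with 3 or more genes had medians of -0.60 over the 3 secreted proteins, -0.40 over the 4 droplet coat genes, -0.22 over the 4 genes of uptake and transport, -0.15 over the 5 genes of triglyceride assembly, -0.10 over the 4 transcription factors and -0.08 over the 3 lipases. Within these roles the interaction ran from that of Slc2a4 to 0.21 (SE 0.56, adjusted p = 0.965) for Agpat2, whose sign turned when arrays were left out.

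The sexes were compared within each line as values only. Pristane means were below control means in males and in females alike for 30 of the 34 genes in AIRmax and 21 of the 34 in AIRmin. The share of all genes for which this holds is not given here. Each mean rests on 2 arrays of the comparisons above, so these counts are no independent support.

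Other genes of fat and of lipid synthesis were read from lists fixed by name. Of 30 other adipocyte genes, such as Mgll, Adig, Hcar2 and Angptl4, none passed in AIRmax, and the median log2 difference was -0.39. At an unadjusted p under 0.05, 14 were lower and 2 higher, against 6.9% and 7.54% of all genes. In AIRmin none passed, 13 were lower and 2 higher at that level, against 7.27% and 5.12% of all genes, and the median was -0.34. The mean of Hcar2 was higher with pristane in both lines, at 7.08 against 6.43 in AIRmax and 7.32 against 6.64 in AIRmin. That of Angptl4 was higher in AIRmax, at 7.83 against 7.16, and lower in AIRmin, at 6.58 against 7.19. Of 14 cholesterol synthesis genes, 9 were lower in AIRmax at an unadjusted p under 0.05, against 6.9% of all genes. In AIRmin 4 of the 14 were higher at that level, against 5.12% of all genes. Their medians were -0.58 and 0.06, and none passed in either line. Of 10 sebocyte genes, 7 were lower in AIRmax at that level, against 6.9% of all genes, with a median of -0.97. In AIRmin 1 sebocyte gene was lower and 1 higher, against 7.27% and 5.12% of all genes, with a median of -0.34. No sebocyte gene passed in either line. Fatty acid oxidation genes, 15 in number, had medians of -0.20 in AIRmax and -0.08 in AIRmin, 14 brown fat genes -0.11 and -0.02, 16 adipogenesis regulators -0.04 and -0.04 and 10 adipocyte progenitor genes -0.07 and -0.41. None of these passed in either line.

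The mean deviation of the 34 genes was 0.21 ± 0.21 in AIRmax controls, -0.49 ± 0.27 in AIRmax pristane, 0.34 ± 0.09 in AIRmin controls and -0.06 ± 0.26 in AIRmin pristane (SD, n = 4 each). In AIRmax the highest pristane array, at -0.10, was under the lowest control, at -0.03. Over the 10 sebocyte genes the same figures were 0.22 ± 0.41, -0.72 ± 0.44, 0.38 ± 0.26 and 0.12 ± 0.35. Over 10 keratinocyte genes they were -0.06 ± 0.48, -0.46 ± 0.97, 0.11 ± 0.10 and 0.41 ± 0.44. Over 18 macrophage genes they were 0.00 ± 0.15, 0.52 ± 0.17, -0.06 ± 0.12 and -0.47 ± 0.33, with 3 of the 18 called higher in AIRmax pristane than in AIRmax controls, against 0.14% of all genes. In AIRmax the fat genes lay lower where macrophage genes lay higher, and in AIRmin both lay lower. The 9 endothelial genes gave 0.11 ± 0.11, -0.01 ± 0.25, 0.19 ± 0.14 and -0.29 ± 0.33. The part of any of these lists in the fat gene results was not tested.

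**Figure D5:**
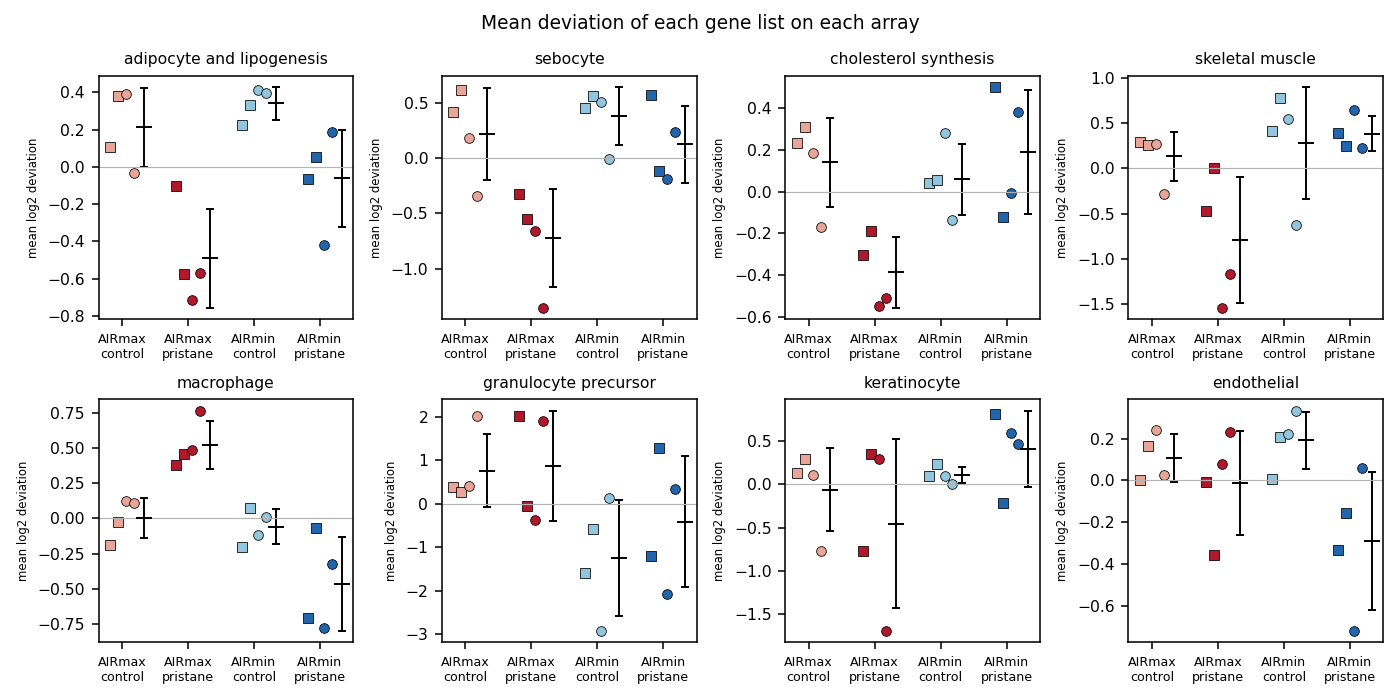
Mean log2 deviation of each gene list from its mean over the 16 arrays, for each array (squares males, circles females), with the mean and SD of each group as a bar. The mean of the adipocyte and lipogenesis list is lowest in AIRmax pristane. The same holds for the sebocyte, cholesterol synthesis, skeletal muscle and keratinocyte lists, the last with a wide spread there. Macrophage genes are highest in that group. In granulocyte precursor genes 4 arrays stand high, 108 in AIRmax control, 109 and 112 in AIRmax pristane and 118 in AIRmin pristane.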

How the data were processed

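Total RNA of 16 footpad samples was measured on single-colour arrays, with groups taken from the labels. The deposited values were log2 signals that the authors had normalized before deposit. Titles of the samples point to RMA at gene level and the submitters' notes to MAS5, with versions not given in the sources used here. The quartiles of the arrays were nearly equal, so the log2 signals were left as they were. Of 35556 probe sets, 21789 named a single gene, and the brightest one of each gene gave 19938 genes. Probe sets with several genes (1621) or no gene (12146) were left out.

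Comparisons of 2 groups used limma 3.58.1 (lmFit, eBayes) under R 4.3.3 with only the arrays compared, and the interaction used all 16 arrays. Benjamini-Hochberg adjustment ran over all genes, with 0.05 as the threshold. SAM was rewritten here from its description (70 relabellings, false discovery rate 0.05). Both tests were tried on simulated data with 200 changed genes. A list's deviation on an array is the average, over its genes, of the log2 signal minus the 16-array mean of that gene. Full values were given for called members and for the 6 of smallest p in each comparison. Of the called genes of other lists only some were named, and the called macrophage genes were not. Some genes of other lists that were not called were named as examples. Further members were shown in full as examples of a role, after their values were seen. Alternatives covered probe set averaging, a signal filter, standardized arrays (as in the study), quantile normalization, a joint fit of all groups, sex as a term, another prior, SAM and single arrays left out. Members, lists and tests were chosen with earlier results of these data known. Tables were made with Python 3.11.15. Array signal has no counted depth, so the number of arrays limits the precision.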

Additional observations from a re-analysis of the deposited data

Results flagged for a closer look

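In 7 of 136 sets of 4 arrays (34 genes in 4 groups) 1 array stood apart from the other 3 by Dixon's test, which chance gives in about 1 of 20 sets. In AIRmax pristane, array 109 was high for Plin4, at 7.11 against 6.25 to 6.38 on the others, and for Pnpla2, at 8.16 against 7.80 to 7.83. In the same group array 112 was low for Acacb, at 6.66 against 7.14 to 7.23, and array 111 was low for Acly, at 8.93 against 9.19 to 9.23. In AIRmin controls array 116 was high for Plin4, at 8.17 against 7.47 to 7.57, and for Lep, at 6.25 against 5.09 to 5.28. In AIRmax controls array 108 was high for Dgat1, at 8.90 against 8.30 to 8.39. Arrays 108, 109 and 112 were among the 4 that stood highest in granulocyte precursor genes, and the part of those cells in these values was not tested.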

How the results depend on the processing

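The number of adipocyte and lipogenesis genes called depended on the fit. Of 170 log2 differences (34 genes in 5 comparisons), 36 changed sign in at least 1 alternative, nearly all where arrays were left out. None of the 36 was among the 6 of smallest p in its comparison or had an unadjusted p under 0.05, and the largest was 0.40 in size. In AIRmax the count of 0 called genes became 7 with all 16 arrays in 1 fit, 1 with sex as a covariate, 19 by SAM and 16 without the 4 arrays high in granulocyte precursor genes, and 0 to 4 when each array was left out in turn (4 without array 109). The genes lower without overlap numbered 14 to 21 when each array was left out and 26 without the 4 arrays, which leave so few arrays that 20% of all genes do so. The median was -0.30 on standardized arrays, in SD units, and -1.03 without the 4 arrays. In AIRmin SAM called 5, the median on standardized arrays was -0.17, and 5 genes were lower without overlap without the 4 arrays, against 6.59% of all genes, and 3 to 11 with each array left out (5 without 118, 11 without 120, 8 without 113). Between the pristane groups the count of 1 became 4 in the joint fit, 2 by SAM, 0 without the 4 arrays and 0 to 1 with each array left out, the median on standardized arrays was -0.22, and the genes lower without overlap were 17 without the 4 arrays, against 15.2% of all genes, and 4 to 11 with each array left out (11 without 109, 7 without 119). Over these alternatives the adjusted p of Slc2a4 ran from 0.0155 to 0.159. Between controls 1 to 3 genes were lower without overlap with each array left out (3 without 106 or 116, 2 without 113). Leaving out an array can only add genes without overlap, among all genes as well. The shares of all genes with single arrays left out are not given here. The rises in these counts are thus no result about the 34 genes or the arrays named. The cause of the changes in calls and medians was not tested beyond the arrays named. No paired analysis was possible because the labels give every array a number of its own.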

Other observations

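Some genes of other fat and lipid lists passed between the pristane groups. Angptl4, a secreted inhibitor of lipoprotein lipase, was higher in AIRmax pristane than in AIRmin pristane, at 7.83 ± 0.42 against 6.58 ± 0.40 (SD, n = 4 each). The log2 difference was 1.25 (limma, adjusted p = 0.0476). The RNA of Lpl, the gene of that lipase, differed by 0.06 (SE 0.29, adjusted p = 0.936), and lipase activity was not measured. Klf15, a factor of fat and muscle, was lower, at 6.15 ± 0.15 against 6.70 ± 0.08, a log2 difference of -0.54 (adjusted p = 0.0444). Fdft1, squalene synthase, was lower, at 8.37 ± 0.27 against 9.18 ± 0.18, a log2 difference of -0.82 (adjusted p = 0.0413). In the interaction, 12 of 14 cholesterol synthesis genes were negative at an unadjusted p under 0.05, against 2.82% of all genes, with a median of -0.70, and none passed.

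Males and females were compared over all 16 arrays in a limma fit with the 4 groups, added after the data were seen. None of the 34 genes passed, against 0.105% of all genes, and 5 had an unadjusted p under 0.05, against 4.98% of all genes. Elovl3 differed most, at a mean log2 signal of 9.03 in 8 males and 8.01 in 8 females, a difference of 1.02 (SE 0.21, adjusted p = 0.126). Dgat2l6, a wax synthase relative on the sebocyte list, passed, at 6.93 in males and 5.99 in females (adjusted p = 0.00975).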
